A study of Mus musculus with 4 samples.

Results

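Expressed long noncoding RNA transcripts of NIH/3T3 cells, an immortalised line of mouse embryonic fibroblasts, are described here. They are the rows of the deposited transcript table in 8 noncoding categories whose mean level reached 20 normalised estimated counts, so they were selected on measured levels. Gas5, the Snhg genes and the imprinted H19, Airn, Meg3, Rian, Mirg, Kcnq1ot1 and Peg13 were left out. Of 34200 transcripts in the table, 4046 were in the 8 categories, 1868 of these were below the level limit and 52 were left out by name. The remaining 2126 transcripts of 1902 genes are the members, 6.22% of the table.

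The cells came from 2 groups of 2 libraries. In the knockdown group (KD), 2 siRNAs against Setd2 were transfected together, and the control group (WT) received a scrambled siRNA. Both groups shared the cell line, the transfection reagent, an siRNA concentration of 10 nM, the time of 48 h and the selection of polyadenylated RNA. Setd2 encodes the methyltransferase that places trimethylation on lysine 36 of histone H3 along transcribed genes. NIH/3T3 is a single established line, the knockdown was transient, and the labels do not say whether replicates were separate cultures.

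Each value below summarises the 4 libraries together. The deposited columns used here give, for each transcript, a mean over the KD and WT libraries, a variance over them and an estimation variance, from repeated estimates on redrawn reads, which holds counting error and read assignment together. Hence no KD value is set against a WT value, the depth of single libraries is unknown, and the level of Setd2 in each group is not given (its mean level over the 4 libraries was 1844 normalised estimated counts). The level is the geometric mean over the 4 libraries, and its error is the SD over the same libraries on the log2 scale (n = 4), which contains any difference between KD and WT. All 8 fibroblast markers were tested, with summed levels from 3083 for Pdgfrb to 323250 for Fn1. The tested epithelial, blood, endothelial and muscle markers ranged from 1.35 for Adgre1 to 343 for Cd68, and Epcam, Krt18, Myod1 and Myog were not in the table.

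Long noncoding RNAs are made by RNA polymerase II, and most are capped, spliced and polyadenylated like mRNAs but carry no long open reading frame. They are named by their position relative to coding genes: a lincRNA lies between genes, an antisense transcript overlaps or faces a gene on the other strand, a bidirectional promoter transcript leaves a coding promoter in the opposite direction, and sense intronic and sense overlapping transcripts lie within or across a gene on the same strand. Some build nuclear bodies, some act at the X chromosome or at their own locus, and others are precursors of small RNAs.

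The annotated 3′ ends of 5 well known genes are shown because the libraries were made from polyadenylated RNA. The last 60 bases of each transcript are given 5′ to 3′ from GENCODE M21 on GRCm38, with the polyadenylation signal AATAAA in capitals. They lie at chr19:5795690-5795749 (minus strand) for the nuclear speckle RNA Malat1, chr19:5842307-5842366 and chr19:5824708-5824767 (minus strand) for the short and long forms of the paraspeckle RNA Neat1, chr2:156388065-156388124 (minus strand) for 2900097C17Rik, the mouse Norad gene, chr2:167065803-167065862 (plus strand) for Zfas1, and chrX:50563125-50563184 (minus strand) for Firre. The long form of Neat1 had neither AATAAA nor ATTAAA there, and 8 of its last 10 bases were A.
Malat1: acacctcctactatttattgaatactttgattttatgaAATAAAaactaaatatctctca
Neat1 short form: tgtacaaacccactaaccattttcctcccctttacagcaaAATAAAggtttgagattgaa
Neat1 long form: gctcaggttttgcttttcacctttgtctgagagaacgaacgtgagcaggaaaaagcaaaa
2900097C17Rik: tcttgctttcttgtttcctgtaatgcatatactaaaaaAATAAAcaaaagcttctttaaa
Zfas1: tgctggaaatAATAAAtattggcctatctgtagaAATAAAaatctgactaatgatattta
Firre: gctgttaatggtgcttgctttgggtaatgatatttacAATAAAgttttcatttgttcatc

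Members were distributed over 6 of the 8 categories. There were 1056 lincRNA transcripts (49.7%), 614 antisense (28.9%), 267 processed_transcript (12.6%), 90 sense_intronic (4.23%), 88 bidirectional_promoter_lncRNA (4.14%) and 11 sense_overlapping transcripts (0.517%). The category processed_transcript is the annotation's name for a transcript without an open reading frame that is placed in no more specific class. The other 2 categories of the rule had no member. The lowest members were the lincRNA AC154438.1 at a level of 20.07 and the antisense transcript Gm26600 at 20.09. The transcripts just outside the limit were Gm16142 at 19.9993 and Gm47541 at 19.99.

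Most members were detected at low levels. The median level was 55.7 (quartiles 31.7 and 134), against 630 for the 21829 protein-coding transcripts that reached the same limit. A level of at least 1000 was reached by 107 members (5.03%), and by 8759 protein-coding transcripts (40.1%). Summed over transcripts, the members held 2.85% of the level of members and protein-coding transcripts together, and the 10 highest members held 64.2% of the members' own sum. The members' expression was thus spread very unevenly.

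Per kilobase of annotated length, the categories with 50 or more members differed less from each other than from protein-coding transcripts. Median levels per kilobase were 58.3 for processed_transcript (95% interval of the median 49.9 to 74.2), 51.2 for bidirectional_promoter_lncRNA (38.0 to 72.9), 42.9 for lincRNA (38.3 to 47.1), 41.2 for antisense (37.0 to 46.6) and 32.9 for sense_intronic (19.8 to 45.1). The protein-coding median was 224 per kilobase (217 to 230). The interval of processed_transcript overlapped that of bidirectional_promoter_lncRNA but not those of lincRNA, antisense and sense_intronic, and the intervals of the last 3 and of bidirectional_promoter_lncRNA overlapped each other. The 11 sense_overlapping members had a median of 19.7 per kilobase with an interval of 13.5 to 121. Because the members were chosen on their level, and transcripts are not replicates, these values are a description without a test.

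**Figure D1:**
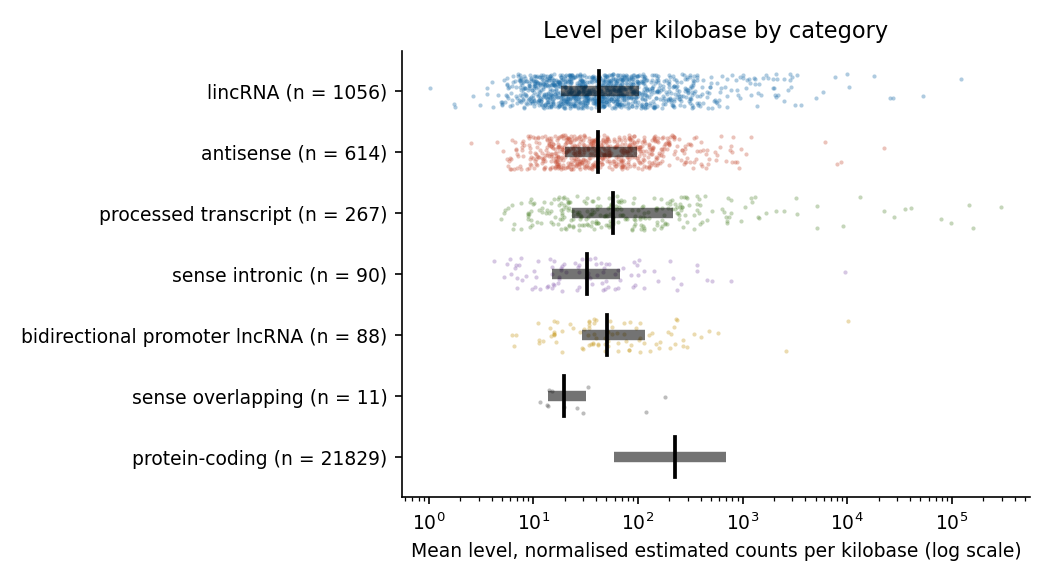
Mean level per kilobase (horizontal axis, normalised estimated counts per kilobase over the 4 libraries, log scale) of each member with an annotated length, by category; black ticks are medians and dark bars the quartiles, and protein-coding transcripts at the same limit are shown by median and quartiles alone. The medians of the 6 noncoding categories lie between 19.7 and 58.3, and the protein-coding median is at 224.

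The categories differed in gene structure. Members had a median length of 1622 bases, 2 exons and a GC content of 47.2%, against 2754 bases, 9 exons and 50.2% for protein-coding transcripts. A single exon made up 53.3% of sense_intronic members, 35.2% of bidirectional_promoter_lncRNA, 14.9% of antisense, 12.4% of processed_transcript and 11.7% of lincRNA members, and 1.70% of protein-coding transcripts. GC content was lowest in sense_intronic (median 44.0%) and highest in antisense members (48.6%). For 77.0% of the members, no other transcript of the gene was in the table, whereas this held for 27.5% of protein-coding transcripts.

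The highest lincRNA levels were held by RNAs of nuclear bodies and by a locus related to ribosomal RNA. The short form of Neat1, the scaffold of paraspeckles, reached 161264 (SD 0.31), or 53683 per kilobase, and is annotated with 3004 bases in 2 exons. The long form of 20771 bases, which starts at almost the same base, reached 51585 (SD 0.22), or 2484 per kilobase, so that the short form was 21.6 times higher per kilobase. Another form of 1030 bases was at 568 (SD 0.56). The long form ends without a polyadenylation signal, as printed above, and was nevertheless among the 10 highest members.

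Malat1, which lies in nuclear speckles, reached 72753.5 (SD 0.34), or 10419 per kilobase, in its transcript of 6983 bases. A 2-exon Malat1 transcript of 485 bases was at 1005, with an SD of 1.09 over the 4 libraries. The forms of the same gene therefore differed in spread as well as in level. Both nuclear body genes lie on chromosome 19, and other genes shared few of the 31-base words of the short Neat1 form (90.4% unshared) and of Malat1 (93.1% unshared). The short Neat1 form lies within the long one, so reads from their common part can be placed on either form and the split between them is uncertain.

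Gm42418 was the member with the highest level, at 223431, and also had one of the largest spreads (SD 1.32). It lies at chr17:39846958-39848788 on the plus strand, in a locus known for its similarity to ribosomal RNA, and 19.4% of its 31-base words were found in no other gene. AY036118, a member on the opposite strand of the same locus, had an SD of 1.27 at a level of 53.2. The neighbouring Gm26917 was at 11043 with an SD of 0.26. Lars2, a coding gene for a mitochondrial tRNA synthetase that is known to contain a stretch similar to ribosomal RNA, was at 126373 with an SD of 0.91. The part of carried-over ribosomal RNA in these levels was not tested.

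The highest processed_transcript members were near copies of genes for translation. Gm10275 shared 99.8% of its 31-base words with Rpl12, Gm15500 99.9% with Rpl5 and Rps26-ps1 70.6% with Rps26, all genes of ribosomal proteins. Their levels per kilobase were 297011 (SD 0.14), 160460 (SD 0.15) and 98774 (SD 0.07), and Gm15501, the third highest of the category, was at 145550 (SD 0.20). For each of these coding genes only 1 transcript was tested. It was listed lower per kilobase, at 2951 for Rpl12, 979 for Rpl5 and 22861 for Rps26. Other transcripts of the genes are not covered by these values. Whether the copies were expressed above the genes as a whole therefore cannot be told from them. Along the coding sequence of 495 bases, Gm10275 and Rpl12 differed at 0 positions, as did Gm15500 and Rpl5 over 891 bases, while Rps26-ps1 and Rps26 differed at 2 of 345.

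The pair below shows how little sequence separated copy from gene. It is bases 1 to 60 of the coding sequence of Rpl12 and the same stretch of Gm10275, from GENCODE M21 transcripts, in lower case throughout because capitals would mark differing bases and there are 0.
Gm10275: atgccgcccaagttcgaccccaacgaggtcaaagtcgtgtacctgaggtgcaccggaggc
Rpl12: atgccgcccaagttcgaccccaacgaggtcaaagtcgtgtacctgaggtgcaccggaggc

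Other highly ranked processed_transcript members had the same property. Gm5641 had no 31-base word of its own beside Hnrnpa3, a gene of an RNA-binding protein, and was at 36007 per kilobase. Gm10175 had none beside Atp5g2, a subunit of ATP synthase, and was at 22613, and Gm10177 shared 94.2% with Sec61g, a subunit of the protein translocation channel, and was at 27847. Reads from such stretches can be placed on either gene, so the levels of copy and gene are uncertain. The estimation variance, as a share of the variance over libraries, was 0.06% for Gm10275 and 0.37% for Gm5641.

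Of the 2117 members matched to GENCODE M21, 78 had under 10% and 227 (10.7%) under 50% of their 31-base words to themselves. The share under 50% was 24.7% in processed_transcript, 9.34% in lincRNA, 9.15% in antisense, 6.67% in sense_intronic and 1.14% in bidirectional_promoter_lncRNA. These 227 members held 53.7% of the summed level of all members, and in processed_transcript such members held 81.6% of the category's sum. Among the 22 members with a level of at least 10000, 9 were under 50%.

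Pseudogenes accounted for much of processed_transcript. In GENCODE M21, 110 of its 267 members (41.2%) belong to genes annotated as transcribed pseudogenes, and these held 89.0% of the category's summed level. Their median level per kilobase was 81.7 (95% interval 41.5 to 124), against 55.6 (41.9 to 69.1) for the other 157, so that the intervals overlapped. Highly expressed processed_transcript members with sequence mostly unshared with other genes were also present. Of these, 2 are given here, chosen after their values were seen. The small transcript 2410006H16Rik, with 100% of its words to itself, was at 40801 per kilobase (SD 0.16). A noncoding form of Cct6a, a chaperonin subunit gene, was at 13132 (SD 0.16), with 82.6% of its words in no other gene. Words shared with the coding transcripts of Cct6a itself were not counted, so its separation from these is not described.

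In the other categories the leaders per kilobase were as follows. Among lincRNA members, Gm42418 and Neat1 were followed by Gm45184 at 27731 (SD 0.14). Antisense members were led by Zfas1 at 22365 (SD 0.15), Gm47551 at 8818 (SD 0.21) with 6.67% of its words to itself, and Rab26os at 8048 (SD 0.36). Bidirectional_promoter_lncRNA members were led by Ndufb1-ps at 10166 (SD 0.24), Gm49494 at 2597 (SD 0.31) and D430020J02Rik at 581 (SD 0.42).

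The sense categories had lower leaders apart from one transcript. Sense_intronic members were led by Gm37214 at 9476 per kilobase (SD 0.17), with Gm48161 at 775 (SD 0.21) and Gm47031 at 517 (SD 0.20) after it. Of these, Gm48161 and Gm47031 had 11.0% and 4.53% of their words to themselves, and Gm37214 had 87.2%. Sense_overlapping members were led by 9230112E08Rik at 182 (SD 0.21), 2900042K21Rik at 121 (SD 0.26) and Gm20644 at 33.07 (SD 0.05). For Gm20644 the estimation variance was 1186% of the variance over libraries, so its small SD understates the error.

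**Figure D2:**
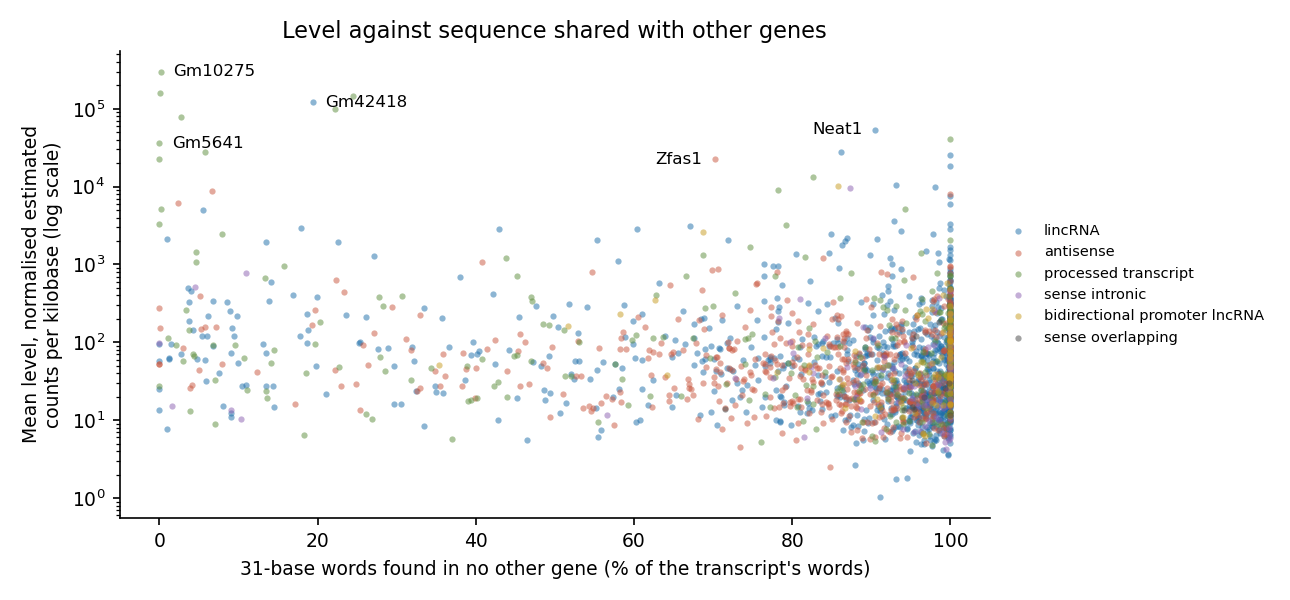
Mean level per kilobase (vertical axis, log scale) against the percentage of a member's 31-base words found in no other gene (horizontal axis), 1 point per member, coloured by category. Gm10275, Gm5641 and other near copies stand at the upper left with under 10% unshared words, Gm42418 at 19.4%, and Neat1 at 90.4%.

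Several members are precursors of microRNAs, and the mature sequences they carry are shown because these are the known products of the hosts. Of the 2117 matched members, 38 (1.79%) from 29 genes contained 46 RefSeq hairpins on the same strand, 29 of them within a single exon. The share was 2.86% for lincRNA, 1.87% for processed_transcript, 1.11% for sense_intronic and 0.327% for antisense members. No bidirectional_promoter_lncRNA or sense_overlapping member contained one. Mature miRNAs themselves were not measured, and the values are levels of the host transcripts.

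Among the hosts, the highest was the lincRNA AL805899.1, the miR-31 host, at 3924 (SD 0.04), or 3610 per kilobase. Dnm3os, an antisense transcript of the gene Dnm3 that carries miR-199a and miR-214, was at 2894 (SD 0.37), or 365 per kilobase. Mir22hg was at 2478 (SD 0.11), or 1414 per kilobase. 3110039I08Rik, the host of miR-125b, was at 1838 (SD 0.38) in its leading transcript, where the hairpin lay outside the exons or at their border. The same hairpin lay within an exon of the sense_intronic member Gm28119, at 60.5. The mature sequences, from RefSeq on GRCm38.p6, are given with the seed (bases 2 to 8) in capitals, and no seed was shared among them.
mmu-miR-31-5p: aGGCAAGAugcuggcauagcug
mmu-miR-199a-5p: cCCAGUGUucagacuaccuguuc
mmu-miR-199a-3p: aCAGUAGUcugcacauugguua
mmu-miR-214-3p: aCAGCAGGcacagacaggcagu
mmu-miR-22-3p: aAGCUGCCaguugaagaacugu
mmu-miR-125b-5p: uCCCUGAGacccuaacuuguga

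Seeds were shared within clusters and between hosts. The growth-associated host Mir17hg was at 414 (SD 0.16), or 117 per kilobase, and all 6 hairpins of its cluster lay within an exon. Within that cluster, miR-17-5p and miR-20a-5p had one seed and miR-19a-3p and miR-19b-3p another.
mmu-miR-17-5p: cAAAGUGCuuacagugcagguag
mmu-miR-20a-5p: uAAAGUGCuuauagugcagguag
mmu-miR-19a-3p: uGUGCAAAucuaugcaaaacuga
mmu-miR-19b-3p: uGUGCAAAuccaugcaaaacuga

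The let-7 seed was carried by members of separate loci, of which those with the hairpin in an exon are described. 6720427I07Rik, which contains the let-7a-1, let-7d and let-7f-1 hairpins, was at 617 (SD 0.21), or 110 per kilobase. Lncppara, which contains let-7b and let-7c-2, was at 576 (SD 0.12), or 408 per kilobase, and D630033A02Rik, the host of let-7i, was at 84.9. The let-7a-2 hairpin lay outside the exons, or at their border, in transcripts of 3110039I08Rik and Gm49317, at levels of 20.9 to 79.9. All mature let-7 sequences below have the same bases 2 to 8.
mmu-let-7a-5p: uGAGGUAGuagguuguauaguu
mmu-let-7d-5p: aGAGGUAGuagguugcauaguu
mmu-let-7f-5p: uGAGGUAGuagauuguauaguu
mmu-let-7b-5p: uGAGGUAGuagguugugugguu
mmu-let-7c-5p: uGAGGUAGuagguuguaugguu
mmu-let-7i-5p: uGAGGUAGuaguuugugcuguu

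The list of small RNA hosts held 11 gene names, matched by symbol alone. Of these, 8 were tested and 7 had members, with 8 transcripts at levels of 32.8 to 2894. Besides the hosts above, Epb41l4aos, a host of a snoRNA, was at 1234 (SD 0.12), or 2871 per kilobase. Mir155hg, the precursor of the immune miR-155, was at 106 (SD 0.08, with an estimation variance of 258% of the variance over libraries), and Mir99ahg at 32.8 (SD 0.39). The tested Mir99ahg transcript did not contain a RefSeq hairpin. Carmn, a host of miRNAs known from smooth muscle, had transcripts at 111 (SD 0.63) and 74.9 (SD 0.40). Mir124a-1hg, known from neurons, was below the limit at 6.42.

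RNAs of the X inactivation centre spanned a wide range. Ftx, an activator of Xist located beside it, was at 1547 (SD 0.10), or 367 per kilobase, in its leading transcript, and had 2 further forms at 199 and 30.7. Jpx, another activator of Xist, had 5 transcripts at 22.0 to 103. Xist, which coats the inactive X chromosome, was at 47.3 (SD 0.29) over 17946 bases, which is 2.64 per kilobase and the lowest value per kilobase among all the listed members. Tsix, its antisense partner, was not in the table. Firre, an X-linked RNA of 20 exons with nuclear repeats, was at 2808 (SD 0.10), or 506 per kilobase.

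Members from the Hox clusters lay in HoxA, HoxB and HoxD. Of 10 genes on the list, 7 were tested and 5 had members. Hotairm1, an RNA of the HoxA cluster linked to myeloid cells, was at 410 (SD 0.24), or 575 per kilobase. Hoxaas2 was at 111 (SD 0.24), the highest Hoxd3os1 form at 91.3 (SD 0.32), Hoxb3os at 59.6 (SD 0.35) and Hoxaas3 at 32.96 (SD 0.57). Hotair, the antisense RNA of the HoxC cluster, was below the limit at 14.2, as was Hoxb5os at 8.16. Of the words in Hoxb3os, counted on both strands, 96.1% were shared with Hoxb3, and exons on the other strand overlapped 97.2% of its bases.

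Genes linked to p53 and growth ranged in level from 25.3 to 10052. The list had 10 gene names, matched by symbol alone, of which 6 were found in the table, all 6 with members. Norad, a name not found, is the same gene as the listed 2900097C17Rik, and other names not found may also be present under another symbol. The 11 transcripts found had a median SD of 0.13, against 0.28 over all members. 2900097C17Rik, a cytoplasmic RNA that binds Pumilio proteins, was at 10052 (SD 0.12), or 2045 per kilobase. Tug1 had 2 forms at 5112 (SD 0.09) and 3731 (SD 0.17), or 761 and 790 per kilobase. Pvt1, the neighbour of Myc, reached 2219 (SD 0.10) in its leading form, and Dancr 1553 (SD 0.13). Trp53cor1, a p53 target near Cdkn1a, was lower, at 141 (SD 0.35), and Lncpint, another p53 target, had forms at 85.1 (SD 0.61), 73.8 (SD 0.33) and 25.3 (SD 0.28). Their median level of 1293 was also above the 55.7 of all members, and SDs were lower at higher levels, as given further on.

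Of 12 names on the differentiation list, 7 were tested and 4 had members. The highest was Gm26917 at 11043 (SD 0.26), the neighbour of Gm42418 named above. The part of carried-over ribosomal RNA in its level was not tested. The others were Bvht, named for a role in heart lineage, at 229 (SD 0.29), Lncenc1 at 82.1 (SD 0.82) and Sox2ot, which spans the gene Sox2, at 37.9 (SD 0.35). Fendrr, known from lateral mesoderm, was at 11.97, and the neural RNAs Dlx6os1 and Miat were at 6.42 and 5.75, all below the limit.

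Start sites near a protein-coding start on the other strand were common and set the categories apart. Only strand and distance were used, so pairs whose transcripts overlap at their starts are included. Within 1000 bases of a protein-coding start on the other strand lay 96.6% of bidirectional_promoter_lncRNA, 52.0% of antisense, 36.0% of processed_transcript, 14.97% of lincRNA and 2.22% of sense_intronic members, and 15.2% of protein-coding transcripts. The first of these shares follows from the definition of the category, and 0 of 11 sense_overlapping members had such a start (95% Wilson interval up to 25.9%). The median distance over all 658 such members was 178.5 bases. In most pairs the noncoding RNA was the lower one: of 626 members whose neighbour was in the table, 43 (6.87%) had a higher level per kilobase than the neighbour's summed transcripts, and the median ratio of member to neighbour was 0.061 (quartiles 0.025 and 0.202).

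The exceptions included some of the highest antisense and bidirectional members. Zfas1, an RNA that hosts snoRNAs and starts 81 bases from Znfx1, was at 22365 per kilobase (SD 0.15), and Znfx1, a helicase gene, at 269. Ndufb1-ps, 266 bases from the polyadenylation factor gene Cpsf2, was at 10166 (SD 0.24), and Cpsf2 at 934. Brip1os, 177 bases from the helicase gene Brip1, was at 1204 (SD 0.31), and Brip1 at 133. By contrast, the bidirectional member D430020J02Rik, 192 bases from the condensin gene Ncapg2, was lower than its neighbour, at 581 (SD 0.42), and Ncapg2 was at 620.

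**Figure D3:**
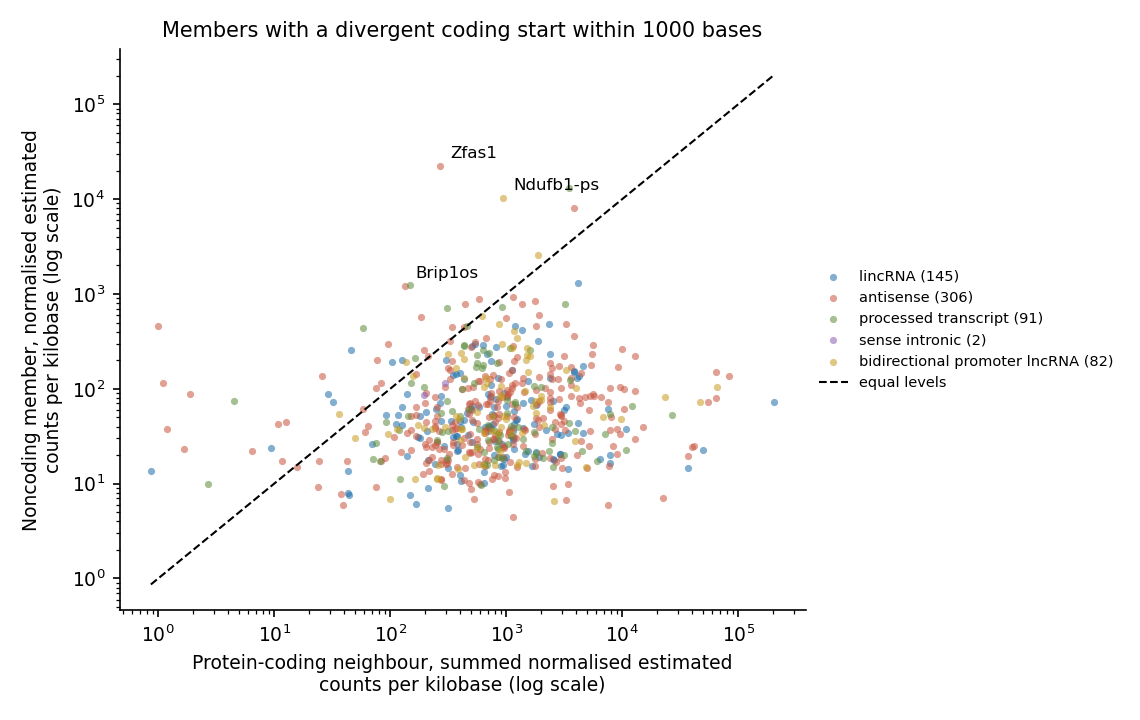
Level per kilobase of members (vertical axis, log scale) against the summed level per kilobase of the protein-coding neighbour whose start lies within 1000 bases on the other strand (horizontal axis, log scale), 1 point per member, coloured by category with the number of pairs in brackets. Most points lie below the dashed line of equal levels, and Zfas1, Ndufb1-ps and Brip1os lie above it.

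The sequence around such starts is shown for a pair in which the noncoding RNA was higher, Zfas1, and for a bidirectional promoter transcript, D430020J02Rik. The windows are RefSeq promoter sequences on GRCm38.p6 from 250 bases before to 50 after the RefSeq start of the gene, at chr2:167062684-167062983 (plus strand) and chr12:116405112-116405411 (minus strand). Capitals mark the 82 and 193 bases that end at the member's start in GENCODE M21, which is the distance to the coding start, taken upstream. The side of the coding start was not checked when the capitals were set. Exons of Znfx1 overlapped 11.1% of the 738 bases of Zfas1, a length that matches a Znfx1 start 81 bases downstream, inside Zfas1. For Zfas1 the capitals are therefore not the stretch between both starts. For D430020J02Rik the M21 start is not the RefSeq start. GC content was 83.0% and 68.0%, with 47 and 26 CG pairs, against a median of 7 CG pairs over 32544 RefSeq windows of this length. Searched on both strands, GGGCGG was found 8 and 4 times and is present in 35.9% of all windows, while CCAAT (in 37.4% of windows) and TATAAA (in 13.6%) were not found in either. Only 928 of the 2126 members (43.65%) had a promoter window by symbol, too few for shares by category.
Zfas1: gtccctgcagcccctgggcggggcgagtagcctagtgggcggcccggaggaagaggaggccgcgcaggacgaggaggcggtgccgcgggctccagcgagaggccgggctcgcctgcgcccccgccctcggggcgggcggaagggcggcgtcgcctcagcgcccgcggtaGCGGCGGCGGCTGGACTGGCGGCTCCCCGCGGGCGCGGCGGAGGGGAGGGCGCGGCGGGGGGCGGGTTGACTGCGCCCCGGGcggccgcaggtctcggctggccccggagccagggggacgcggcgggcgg
D430020J02Rik: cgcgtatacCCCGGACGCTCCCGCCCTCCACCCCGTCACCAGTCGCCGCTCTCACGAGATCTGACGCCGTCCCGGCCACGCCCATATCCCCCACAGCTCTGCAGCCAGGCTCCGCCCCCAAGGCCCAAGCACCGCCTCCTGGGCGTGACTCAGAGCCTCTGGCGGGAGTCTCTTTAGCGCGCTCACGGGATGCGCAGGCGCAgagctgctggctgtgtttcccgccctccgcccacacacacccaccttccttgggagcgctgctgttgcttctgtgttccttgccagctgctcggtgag

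Overlap of exons with exons on the other strand was found for 60.3% of antisense members, 28.1% of processed_transcript, 27.3% of bidirectional_promoter_lncRNA, 16.5% of lincRNA and 8.89% of sense_intronic members. Among protein-coding transcripts at the same level limit the share was 21.5%. A protein-coding exon was involved for 508 members, and at the median 16.5% of the member's bases were overlapped. Of 419 such members whose coding partner reached the level limit, 39 (9.31%) were higher per kilobase than the partner, with a median ratio of 0.065. The library kit keeps strand, but the strand setting of the quantification is not given in the sources used here, so reads in such exons cannot be assigned to a strand with certainty. An example is 1110002L01Rik, with 77.7% of its bases opposite exons of the kinesin gene Kif3c, at 447 per kilobase (SD 0.35), and Kif3c at 291.

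Polyadenylation signals were less common at the annotated ends of members than of coding transcripts. AATAAA or ATTAAA was present in the last 50 bases of 50.4% of members (95% Wilson interval 48.3 to 52.5%) and of 70.7% of protein-coding transcripts (70.0 to 71.3%). Sense_intronic members had the lowest share, 32.2% (23.5 to 42.4%), and lincRNA, processed_transcript, bidirectional_promoter_lncRNA and antisense members had 48.7%, 53.2%, 53.4% and 54.1%. The share was 46.7% among members at levels of 20 to 50 and 69.2% at 1000 or more, and 62.1% and 79.7% in the same classes of protein-coding transcripts. In each class the share of the members was lower. These are letters at annotated ends, which the data do not locate.

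**Figure D4:**
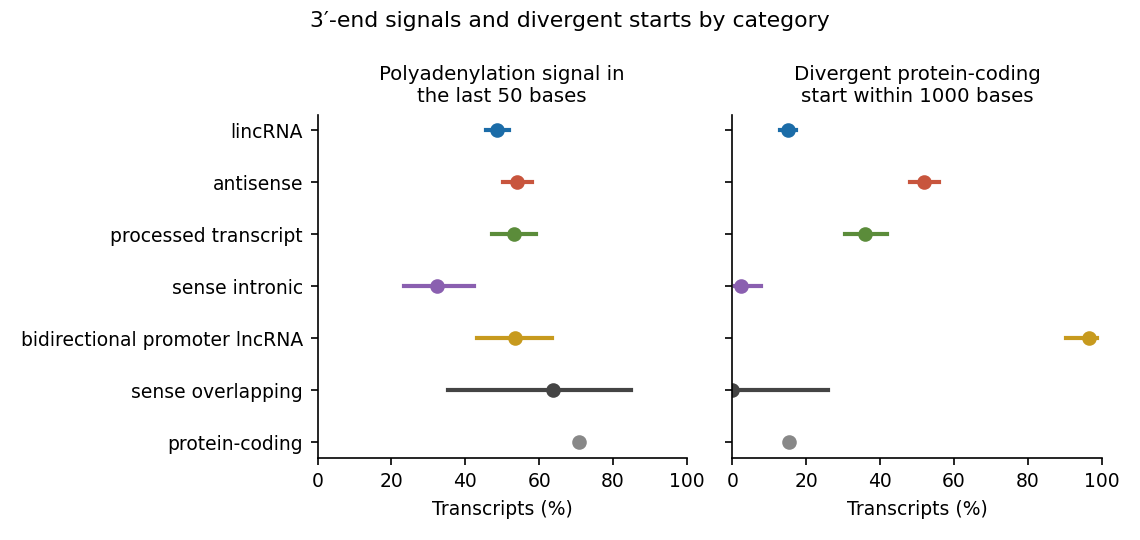
Percentage of transcripts with a polyadenylation signal in the last 50 bases (left) and with a protein-coding start on the other strand within 1000 bases (right, titled divergent). Shares are given by category and for protein-coding transcripts at the same level limit. Points are shares and lines 95% Wilson intervals. Sense intronic members have the lowest signal share among noncoding categories, 32.2%, and bidirectional promoter members the highest share of such starts, 96.6%.

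The spread over the 4 libraries was similar between categories. Median SDs on the log2 scale were 0.29 for lincRNA, 0.27 for antisense and for bidirectional_promoter_lncRNA, 0.26 for processed_transcript and for sense_intronic, and 0.22 for sense_overlapping members, with 0.25 for protein-coding transcripts. Within classes of equal level, members had lower SDs than protein-coding transcripts, 0.32 against 0.47 at levels of 20 to 50 and 0.24 against 0.32 at 100 to 300. Where only genes with a single tested transcript were taken, the gap was smaller, 0.32 against 0.35 and 0.24 against 0.27, and at levels of 300 to 1000 the members were higher, 0.21 against 0.19. The number of tested transcripts per gene thus moved with this difference.

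At levels of at least 100, 60 of 689 members (8.71%) had an SD above 0.5, against 10.6% of 17484 protein-coding transcripts. An SD above 1 was found for 5 members (0.73%), against 1.26% of the protein-coding transcripts. Among these members were AL732506.1 at a level of 128 (SD 1.59), Gm42418 (SD 1.32) and Platr16 at 382 (SD 1.13). The others were the 2-exon form of Malat1 (SD 1.09) and Gm48051 at 1789 (SD 1.02). For AL732506.1 the estimation variance was 72.8% of the variance over libraries. The next highest share was 0.88%, for the Malat1 form. Of AL732506.1, 96.0% of words were shared with Rmrp, the RNA of an RNA-processing ribonuclease in the same place of chromosome 4, which itself had an SD of 1.26. Gm48051 had 97.0% of its words to itself, and for Platr16 the share was 45.2%. Whether KD and WT libraries differed at these transcripts cannot be told apart from spread within the groups.

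Among antisense members, the largest SDs at levels of at least 100 were those of Gm17173 (0.98 at a level of 141) and D030025P21Rik (0.96 at 136). For bidirectional_promoter_lncRNA they were 0.49 for Gm9776 and 0.48 for Gm9828, and for sense_intronic 0.60 for Gm47739 and 0.59 for Gm16310. Gm9531, a near copy of the histone chaperone gene Set, had an SD of 0.96 at a level of 922, with 95.4% of its words shared. In that case the estimation variance was 296% of the variance over libraries.

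**Figure D5:**
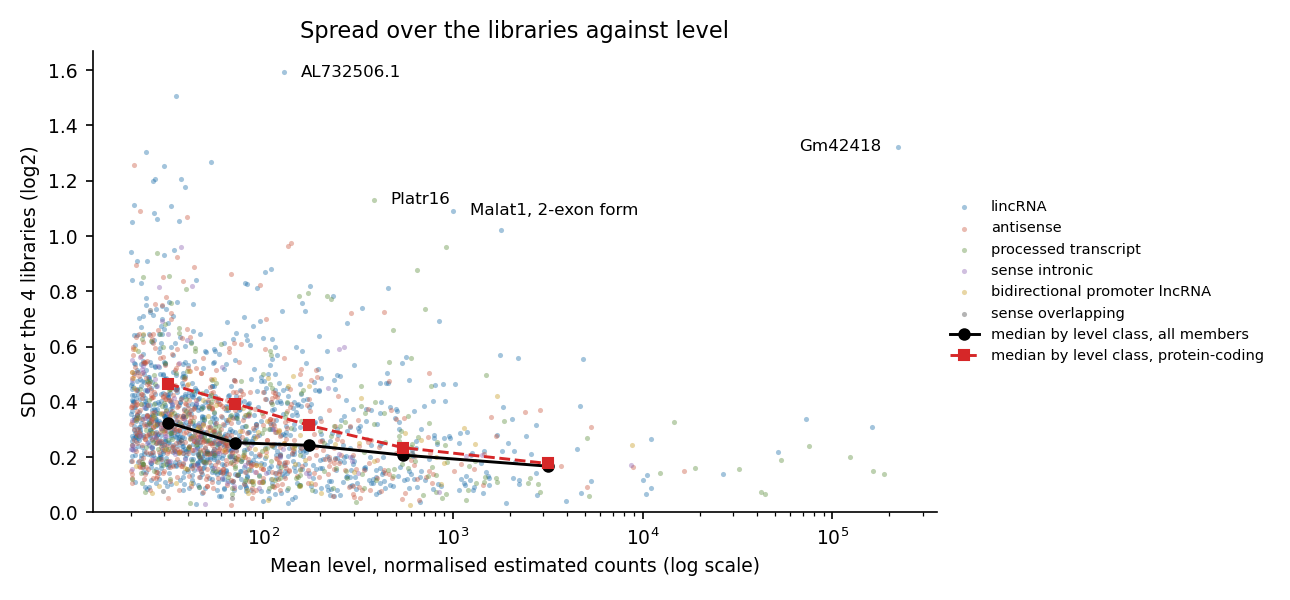
SD over the 4 libraries (vertical axis, log2) against mean level (horizontal axis, normalised estimated counts, log scale) of each member, coloured by category, with medians by level class for members (black) and protein-coding transcripts (red). At levels of 20 to 50 the medians are 0.32 and 0.47, and AL732506.1 and Gm42418 have SDs of 1.59 and 1.32. The estimation variance of AL732506.1 is 72.8% of its variance over libraries.

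The estimation variance, which cannot separate counting error from the assignment of reads, was 49.3% of the variance over libraries at the median member and 21.3% at the median protein-coding transcript. Medians by category were 36.7% for processed_transcript, 40.9% for bidirectional_promoter_lncRNA, 49.0% for lincRNA, 53.6% for antisense and 55.8% for sense_intronic members. The value was 71.8% for members at levels of 20 to 50 and 2.99% at 1000 or more. It was 28.1% for members with under 10% of their words unshared with other genes and 51.6% for those with 90% or more. In processed_transcript the order was reversed, at 46.9% and 35.5%. Over all members, the median levels of the 2 groups were 229 and 52.8. The group under 10% was also the higher in level in processed_transcript. Groups of equal level were not compared, so a link between shared sequence and the estimation variance was not tested. The estimation variance exceeded 100% of the variance over libraries in 26.1% of members. An example is the lowest Pvt1 form, at a level of 100.04 with an SD of 0.04.

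Genes with several members differed in how evenly the forms were expressed. In the 154 genes with more than 1 member, the leading form held at the median 61.5% of the gene's summed level per kilobase (quartiles 54.1% and 76.5%). With 2 forms this share cannot be under 50%. It held 94.6% in Neat1, 83.4% in Malat1, 79.9% in Ftx and 74.3% in Pvt1, but 51.0% in Tug1, 37.1% in Lncpint and 25.7% in Jpx. The most members, 9, came from 3110039I08Rik, the miR-125b host, with levels of 20.9 to 1838.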

How the data were processed

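NIH/3T3 libraries (2 KD, 2 WT) were prepared by the authors with the TruSeq Stranded mRNA kit, sequenced on 1 HiSeq lane, trimmed with BBDuk, quantified with Kallisto and modelled with Sleuth. The transcript index is not given in the sources used here, and the submitters' processing notes name bcl2fastq 2.17, HISAT2 and GRCm38. Of the deposited transcript table, 3 columns were used: the mean over the 4 libraries of estimated counts that the authors had normalised and, after adding 0.5, put on a natural log scale, the variance of that value over the libraries, and the estimation variance (variance of repeated estimates on redrawn reads). Its other columns hold the authors' comparison of KD and WT (effects, test statistics, p-values and q-values) and were not used.

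The level was the exponential of the mean minus 0.5, with no count of reads per library to give a depth. Log2 SDs were the square root of the variance divided by the natural log of 2. IDs were matched by version to GENCODE M21 (GRCm38), which gave length, exons, sequence and position for 2117 of 2126 members. A divergent start was within 1000 bases of a start of a basic protein-coding transcript on the other strand. Whether the 2 transcripts pointed away from each other or overlapped was not checked. Words of 31 bases were compared, on both strands, with basic transcripts of all other genes. Intervals are 95% (order statistics for medians, Wilson for shares) and describe the number of transcripts only. Python 3.11.15, pandas 2.3.3 and scipy 1.17.1 were used, and the functions were tested on simulated data.

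The members and the gene lists were chosen with earlier results of these data known. Lists were matched by gene symbol alone, so a listed gene present under another symbol was counted as not tested. Named genes were those of the lists, the 3 highest per kilobase and the 2 largest SDs (at levels of at least 100) per category with 10 or more members, transcripts at the level limit, and coding neighbours of these; others are named as leading examples of a count. Length, level limit, unit of counting, signal and distance were varied. A few neighbouring or copied coding genes are not reported here.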

Additional observations from a re-analysis of the deposited data

How the results depend on the processing

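A lowest level of 50 or 100 left 1165 or 689 members, 10 gave 2888, and keeping the genes left out by name gave 2178. The median level per kilobase was 27.7, 91.2 and 174 at lowest levels of 10, 50 and 100, 52.7 with 200 bases taken off each length, and 39.7 without members under 50% unshared words, an alternative chosen after seeing the data. The median SD was 0.31, 0.24 and 0.22 and the estimation variance share 61.2%, 28.2% and 15.7% at lowest levels of 10, 50 and 100. The signal share was 39.3% with AATAAA alone and 53.7% over the last 100 bases. The divergent share was 25.9% within 500 and 34.1% within 2000 bases. Taking 1 transcript per gene left the median level per kilobase, SD and estimation variance share within their intervals. Among categories with 50 or more members, sense_intronic had the lowest median level per kilobase with 1 transcript per gene, shortened lengths, without members of shared sequence and at a lowest level of 10, but bidirectional_promoter_lncRNA had it at lowest levels of 50 and 100. Processed_transcript had the highest except at a lowest level of 10, where bidirectional_promoter_lncRNA had it. Sense_intronic kept the lowest signal and divergent shares in each alternative, whereas the order of the median SDs changed in each. No paired analysis was possible because the values used are over the 4 libraries together; for the same reason no library could be left out.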

Other observations

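Members matched to the annotation were found on each autosome and on X and Y, from 164 on chromosome 7 to 3 on chromosome Y. Chromosomes 12 and 13 held 6.00% and 6.14% of the members and 3.53% and 3.79% of protein-coding transcripts at the same level limit, whereas chromosomes 2 and 11 held 5.62% and 4.91% of the members and 8.20% of protein-coding transcripts each. The Y-linked members were Gm28588 at a level of 435 (SD 0.15), which is opposite exons of Uba1y, Gm29650 at 138 (SD 0.28) and Gm28587 at 27.7 (SD 0.32). AC160336.1, annotated as a lincRNA of 93147 bases, was at a level of 10374 (SD 0.07) but at 111 per kilobase.

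Repeated or shared sequence outside ribosomal protein copies was found for a group of members with words in common with Noct, the gene of the circadian protein nocturnin. These were Gm29084 (93.8% of words shared, 6100 per kilobase), AC159200.1 (77.5%, 1955 per kilobase) and Gm48161 (53.5%, 775 per kilobase), which lie on separate chromosomes, and Noct transcripts together were at 1019 per kilobase. The lincRNA Gm7292 shared 85.9% of its words with 2900097C17Rik and was at 593 per kilobase.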
